A study of Mus musculus with 4 samples.

Results

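The sugar carriers of the mouse kidney were followed across tissue sections, namely the sodium-coupled glucose transporters Slc5a2 (SGLT2) and Slc5a1 (SGLT1) and the facilitative transporters Slc2a2 (GLUT2), Slc2a1 (GLUT1) and Slc2a5 (GLUT5). They were chosen by name as 5 of the 32285 genes in the count matrices. No rule on their measured values was used, though earlier results of these data were known. Visium sections of left kidneys were used, 2 normal and 2 taken 24 h after 30 min of ischemia in both kidneys followed by reperfusion. All mice were male wild-type C57BL/6J of 7 to 8 weeks, the normal group carries no label of a sham operation, and the kidneys were snap-frozen and cut at 10 µm. By the slide serial numbers in the labels all 4 sections lay on 1 slide, and the sources used here do not say which mouse each section came from, so p-values measure the spread between these 2 sections a group, which may be partly technical.

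Glucose filtered into the tubule is taken back by the proximal tubule. Sodium-coupled carriers in the brush border pull it into the cell, SGLT2 in the early convoluted part with high capacity and SGLT1 in the later straight part with high affinity, and facilitative carriers in the basolateral membrane let it out, GLUT2 early and GLUT1 late. GLUT1 is also the common glucose carrier of most other cells, including the thick ascending limb, the collecting duct and endothelium, and GLUT5 carries fructose.

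In the GRCm38 (mm10) build, all 5 genes were protein-coding and on the plus strand: Slc5a1 at chr5:33104219-33162870, Slc5a2 at chr7:128265657-128272430, Slc2a1 at chr4:119108711-119137983, Slc2a2 at chr3:28697903-28731359 and Slc2a5 at chr4:150119283-150144169 by GENCODE. The RefSeq promoter table matched 4 of the 5, all but Slc5a2. Promoter sequence is given for the member called higher in whole sections (Slc2a1), the one with the lowest log2 fold change in a zone (Slc2a5) and Slc5a1, which also holds the motif searched. The motif was the core of the hypoxia response element, ACGTG, read on both strands, and capitals mark matches. The windows are chr4:119108495-119108720 for Slc2a1, chr4:150119094-150119292 for Slc2a5 and chr5:33103969-33104218 for Slc5a1, plus strand, GRCm38.p6. The windows printed for Slc2a1, of 226 bases, and Slc2a5, of 199 bases, end 10 bases past the GENCODE start and short of the RefSeq start.
Slc2a1: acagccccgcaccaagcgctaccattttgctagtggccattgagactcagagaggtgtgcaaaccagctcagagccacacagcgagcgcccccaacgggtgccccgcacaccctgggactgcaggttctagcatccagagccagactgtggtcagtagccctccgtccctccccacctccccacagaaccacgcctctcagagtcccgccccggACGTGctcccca
Slc2a5: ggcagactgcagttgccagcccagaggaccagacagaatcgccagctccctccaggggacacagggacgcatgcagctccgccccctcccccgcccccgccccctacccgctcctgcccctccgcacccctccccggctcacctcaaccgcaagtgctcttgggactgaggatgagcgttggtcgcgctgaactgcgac
Slc5a1: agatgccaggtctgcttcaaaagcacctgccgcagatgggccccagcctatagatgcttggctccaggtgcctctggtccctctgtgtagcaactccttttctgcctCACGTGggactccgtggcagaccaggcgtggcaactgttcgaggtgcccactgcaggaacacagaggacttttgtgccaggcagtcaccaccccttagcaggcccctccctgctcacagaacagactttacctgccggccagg
ACGTG began 36 bases before the RefSeq start of Slc2a1, and in Slc5a1 it lay inside the palindrome CACGTG, whose matches on both strands overlap at 143 and 142 bases before the start. The 250 bases before the RefSeq starts of Slc2a2 and Slc2a5 held no ACGTG. Of 32851 promoter windows of the same 250 bases, 16.6% held ACGTG, so these matches describe the sequence and nothing more.

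Visium captures polyadenylated RNA on barcoded spots that each span several cells, and unique molecular identifiers (UMIs) count captured molecules. The sections held 25957128 to 44528078 UMIs over 2401 to 2682 tissue spots, 10312 in all, with median UMIs per spot from 8656 to 16162.5, and normal section 1 was the deepest. Levels are given as CPM, UMIs of a gene per 1000000 UMIs of the section or zone. The kidney label held, since all 5 proximal tubule markers tested (Lrp2, Cubn, Slc4a4, Acsm2 and Miox) were present in each section. Their summed level was 3775 and 3551 CPM in normal and 625 and 618 CPM in ischemic sections, and the injury markers Havcr1, Lcn2, Krt20 and Vcam1 summed to 14.7 and 23.7 against 4706 and 5301 CPM. Spots were placed in 5 zones by marker genes that left out all glucose transporters. Cortex took 36.6% to 45.0% of the spots, outer stripe of the outer medulla 26.5% to 30.7%, inner stripe 12.2% to 19.1%, inner medulla 5.31% to 13.1% and pelvis 4.37% to 5.03%. The zones are regions, not cell types, and their anatomy was not matched between sections. When zones were set from single spots without neighbours, 66.4% and 63.0% of normal and 28.6% and 28.5% of ischemic pelvis spots stayed pelvis. The inner medulla spots of the normal sections lay beside the pelvis and also held cortex markers at 1305 and 1163 CPM and fat markers at 455 and 66.8 CPM, against 111 and 87.8 CPM and 0.362 and 0.784 CPM in the ischemic sections. In the ischemic sections the outer stripe markers themselves had fallen, from 3122 and 3046 to 458 and 485 CPM in that zone.

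In whole sections, ischemia went with less Slc5a2 and Slc2a5, more Slc2a1, and no called change of Slc5a1 and Slc2a2. That is 3 of the 5 genes called by edgeR's quasi-likelihood test, where 60.6% of the 15305 genes tested were called. The whole-section test normalizes by trimmed mean of M-values (TMM). Scaling by total UMIs alone moved the median log2 fold change of all genes from 0.04 to 0.31, and the share of calls that were higher in ischemia from 51.1% to 67.0%, so fold changes near 0 depend on the scaling. Fewer cells of a type and less RNA per cell cannot be told apart in these sums.

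**Figure D1:**
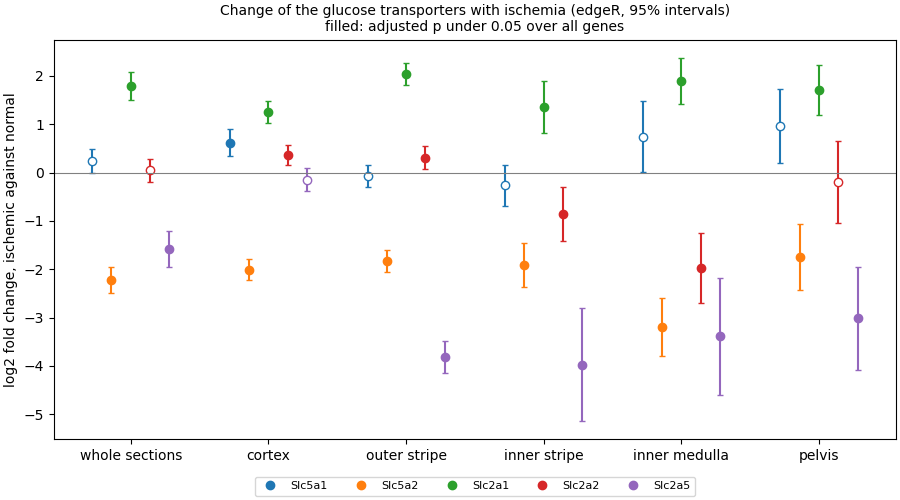
Log2 fold change of ischemic against normal sections (y axis) for the 5 glucose transporters in whole sections and in each zone (x axis), with 95% intervals derived from edgeR's F statistic and filled points for adjusted p under 0.05 over all genes tested. Slc2a1 lies above 0 and Slc5a2 below 0 throughout, while Slc2a5 lies near 0 in cortex at -0.15 and between -3.02 and -3.98 in the other zones.

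Slc5a2, the carrier that takes back most filtered glucose, stood at 171 and 194 CPM in the normal and 50.2 and 44.2 CPM in the ischemic sections. Both ischemic sections lay far below both normal ones. The means were 183 ± 16.1 and 47.2 ± 4.23 CPM (SD, n = 2), a log2 fold change of -2.22 (SE 0.12), with an adjusted p of 9.77e-07 by edgeR's quasi-likelihood test. Cortex was its zone in both conditions. Cortical levels were 309.5 and 356 CPM without ischemia and 96.1 and 93.8 CPM after it, a log2 fold change of -2.01 (SE 0.10, edgeR adjusted p 2.07e-09). In outer stripe it went from 53.1 and 62.5 to 22.7 and 19.1 CPM, a log2 fold change of -1.83 (SE 0.11, edgeR adjusted p 1.63e-10). In both zones each ischemic section lay below each normal one. It was called lower in inner stripe (-1.92), inner medulla (-3.20) and pelvis (-1.75) as well. The inner medulla value compares 102 and 126 CPM with 17.7 and 10.6 CPM, and the normal spots there were those that held cortex markers. The pelvis value rests on 12 and 29 UMIs in the ischemic sections and was -1.28 without ischemic section 1 and -2.45 without ischemic section 2. All 5 proximal tubule markers fell in whole sections too, from -0.82 for Slc4a4, the basolateral bicarbonate carrier, to -3.84 for Miox, the inositol oxygenase, with Lrp2 (megalin) at -2.31 and none at 0 counts, and their part in the fall of Slc5a2 was not tested.

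Slc5a1, the high-affinity carrier of the late proximal tubule, had a different zone pattern and a different response. Its whole-section level was 20.5 and 20.5 CPM in normal and 28.3 and 30.4 CPM in ischemic sections, with log2 fold change 0.23 (SE 0.11, edgeR adjusted p 0.0957, 95% interval -0.02 to 0.48). The CPM of the groups did not overlap, but the difference did not pass the threshold after TMM, and it did pass without TMM (0.52, edgeR adjusted p 0.00977) and without normal section 1 (0.38, edgeR adjusted p 0.000126). Cortex was the zone with a called change. There Slc5a1 stood at 14.4 and 12.9 CPM in the normal and 24.2 and 25.1 CPM in the ischemic sections, a log2 fold change of 0.62 (SE 0.13, edgeR adjusted p 0.0012). In outer stripe the levels were 24.7 and 28.1 against 30.3 and 34.6 CPM, with a log2 fold change of -0.07 (95% interval -0.29 to 0.16) that turned to 0.30 without TMM. In inner stripe they were 35.3 and 40.2 against 44.1 and 36.4 CPM, and the log2 fold change of -0.26 (95% interval -0.69 to 0.16) turned to 0.10 without TMM. Inner medulla (0.75, edgeR adjusted p 0.116) and pelvis (0.97, edgeR adjusted p 0.0621) rest on 12 to 79 UMIs a section and did not pass. Inner medulla did pass in 3 of 12 alternatives and pelvis in 2 of 11. For inner stripe 2 of 12 alternatives differed in call or sign, and the values ran from -0.40 to 0.10. Inner stripe, a zone set by thick ascending limb markers such as Slc12a1 and Umod, held the highest Slc5a1 level in both conditions. Outer stripe came next, so the peak was not in the zone of the straight proximal tubule, and which cells held it was not tested. In the normal sections the levels of inner and outer stripe did not overlap with each other or with cortex. Cortex at a mean of 13.7 CPM and inner medulla at 13.5 CPM overlapped.

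The balance of the sodium-coupled pair moved towards Slc5a1. Slc5a1 made up 10.7% and 9.57% of the UMIs of Slc5a1 plus Slc5a2 in normal kidneys and 36.1% and 40.8% in ischemic kidneys. In cortex its share went from 4.46% and 3.51% to 20.1% and 21.1%, in outer stripe from 31.7% and 31.0% to 57.2% and 64.4%, and in inner stripe from 56.3% and 49.8% to 78.7% and 77.8%. In each of these zones both ischemic sections lay above both normal ones. The exact 95% binomial intervals, which cover counting error only, ran from 3.98% to 4.98% and from 2.99% to 4.08% in normal cortex and from 18.1% to 22.2% and from 18.8% to 23.6% in ischemic cortex. These are shares of captured molecules, not of protein or of transport.

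**Figure D2:**
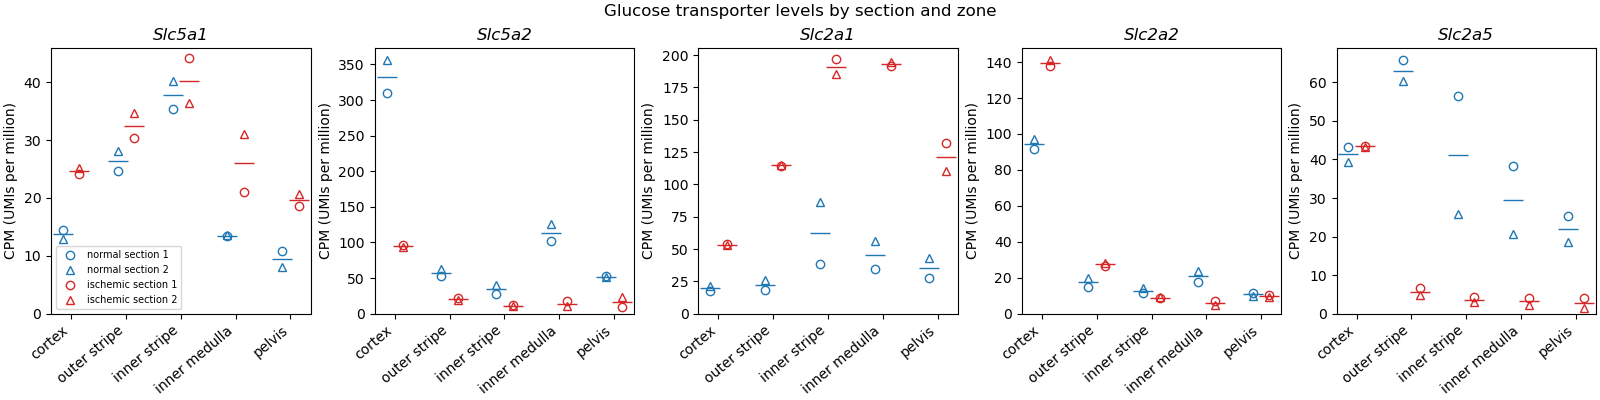
CPM (y axis, linear, from 0) of each glucose transporter in each zone (x axis), with 1 point per section (blue normal, red ischemic, circles section 1, triangles section 2) and a bar at the mean of 2 sections. Slc5a2 and Slc2a2 peaked in cortex, Slc5a1 in inner stripe, and Slc2a5 moved from a peak in outer stripe in the normal sections to cortex in the ischemic sections.

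Slc2a2, which releases glucose across the basolateral membrane of the early proximal tubule, did not follow Slc5a2. Whole sections held 50.4 and 53.4 CPM in normal and 67.2 and 63.0 CPM in ischemic kidneys, with log2 fold change 0.05 (SE 0.11, edgeR adjusted p 0.695, 95% interval -0.19 to 0.29). That value was 0.33 without TMM (edgeR adjusted p 0.0268) and -0.07 without normal section 2. In cortex, where most of its UMIs lay, the level was 91.7 and 97.3 CPM in the normal and 138 and 141 CPM in the ischemic sections. The ischemic sections were the higher ones without overlap, at log2 fold change 0.36 (SE 0.09, edgeR adjusted p 0.00602). Outer stripe went from 15.1 and 19.7 to 26.8 and 28.2 CPM (0.31, SE 0.11, edgeR adjusted p 0.0257). Below it the sign was the opposite, with 11.5 and 14.1 against 8.72 and 9.10 CPM in inner stripe (-0.87, SE 0.25, edgeR adjusted p 0.0197) and 17.5 and 24.0 against 6.87 and 5.10 CPM in inner medulla (-1.98, SE 0.31, edgeR adjusted p 0.00355). The inner medulla value again involves the normal spots with cortex markers, and pelvis was not called (-0.19). The cortical call was lost without ischemic section 1 (0.38) or 2 (0.35). The outer stripe call was lost in 5 of 12 alternatives. Among them were leaving out normal section 1 (0.22), ischemic section 1 (0.36) or 2 (0.28) and DESeq2 (0.27, DESeq2 adjusted p 0.241). The inner stripe call, on 35 to 64 UMIs a section, was lost in 6 of 12 alternatives. Among these were no TMM (-0.50), DESeq2 (-0.88, DESeq2 adjusted p 0.129), leaving out ischemic section 1 (-0.77) or 2 (-0.85), and zones set from single spots (-0.26).

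Slc2a5, the fructose carrier, changed its place as well as its level. Whole sections held 52.1 and 43.5 CPM in normal and 21.0 and 18.1 CPM in ischemic kidneys, without overlap, a log2 fold change of -1.58 (SE 0.17, edgeR adjusted p 4.92e-05). Cortex held 43.3 and 39.4 CPM in the normal and 43.5 and 43.3 CPM in the ischemic sections, with log2 fold change -0.15 (SE 0.11, 95% interval -0.39 to 0.09, edgeR adjusted p 0.295), which was 0.07 without TMM and -0.33 without normal section 2 (edgeR adjusted p 0.00172). Outer stripe, the zone of its highest normal level, went from 65.7 and 60.3 CPM to 6.72 and 4.78 CPM, a log2 fold change of -3.82 (SE 0.16, edgeR adjusted p 2.14e-12). The ischemic values rest on 70 and 42 UMIs against 1021 and 593 in the normal sections. Inner stripe (-3.98, SE 0.52), inner medulla (-3.39, SE 0.52) and pelvis (-3.02, SE 0.49) were called lower too. The normal inner medulla spots were those that held cortex markers. The ischemic values rest on 11 and 6 UMIs in inner medulla and on 5 and 2 in pelvis. In inner stripe the normal sections differed by more than in other zones, at 56.5 and 25.7 CPM against 4.24 and 3.03 CPM in the ischemic sections, and the change was -2.91 without normal section 1. The share of outer stripe spots with at least 1 Slc2a5 UMI was 66.7% and 47.3% in the normal and 9.42% and 5.16% in the ischemic sections. At an equal depth of 2000 UMIs a spot the expected shares were 12.0% and 11.4% against 1.34% and 0.901%, and in cortex 8.09% and 7.79% against 8.34% and 7.66%.

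Within cortex and outer stripe the spots of each section were ordered by how far outer stripe markers stood above cortex markers and split into 10 bins of equal size. This order gave Slc2a5 opposite slopes. In the most cortical bin it stood at 37.4 and 41.5 CPM in the normal and 71.5 and 84.7 CPM in the ischemic sections. In bin 6 the values were 46.7 and 44.2 against 20.6 and 15.2 CPM, and in the last bin 68.8 and 65.3 against 3.17 and 1.50 CPM. The ischemic values of the last bin rest on 9 and 3 UMIs. The near-equal cortical averages thus held bins at the cortical end with more and bins nearer the outer stripe with less Slc2a5 than in normal sections. Slc2a2 lay above normal at both ends of the order, at 116 and 127 against 176 and 209 CPM in the first bin and at 4.13 and 5.58 against 9.87 and 11.5 CPM in the last. These last-bin values rest on 17 and 13 against 28 and 23 UMIs. Slc5a2 lay below normal at both ends, at 411 and 423 against 174 and 175 CPM in the first bin and 11.7 and 14.6 against 6.70 and 10.5 CPM in the last. The bins describe each section by its own markers, which had themselves fallen in ischemia, and carry no test.

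**Figure D3:**
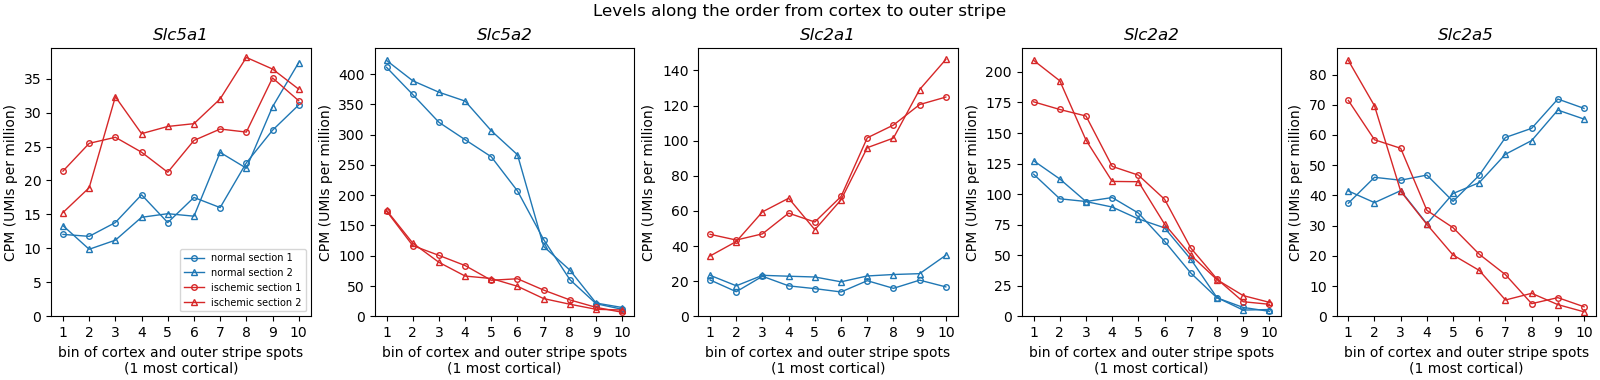
CPM (y axis, linear, from 0) along 10 bins of the cortex and outer stripe spots of each section, ordered from most cortical (1) to most like outer stripe (10), with 1 line per section (blue normal, red ischemic). The Slc2a5 lines cross: ischemic sections start at 71.5 and 84.7 CPM, above the normal 37.4 and 41.5, and end at 3.17 and 1.50 CPM (9 and 3 UMIs), below the normal 68.8 and 65.3.

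Slc2a1, the glucose carrier of the late tubule and of most other cell types, was the member called higher in whole sections. It stood at 21.1 and 32.1 CPM in the normal and 108 and 111 CPM in the ischemic sections. The ischemic sections agreed closely and lay above both normal ones, with a log2 fold change of 1.79 (SE 0.13, edgeR adjusted p 3.86e-06). It was called higher in all 5 zones. Cortex went from 17.4 and 21.7 to 53.6 and 53.0 CPM (1.26, SE 0.10, edgeR adjusted p 2.70e-07), and outer stripe from 18.3 and 25.9 to 114 and 115 CPM (2.03, SE 0.11, edgeR adjusted p 5.00e-11). Inner stripe went from 38.5 and 86.0 to 197 and 186 CPM (1.36, SE 0.24, edgeR adjusted p 0.0016), with the normal sections far apart. Inner medulla went from 34.2 and 56.4 to 191 and 194 CPM (1.89, SE 0.21, edgeR adjusted p 0.000971) and pelvis from 27.6 and 42.8 to 132 and 110 CPM (1.70, SE 0.24, edgeR adjusted p 0.000274). The normal inner medulla spots were those that held cortex and fat markers, and cortex had the lowest mean Slc2a1 level of the zones. In every zone the groups did not overlap. Inner stripe and inner medulla held the highest levels in both conditions and overlapped with each other, and in the normal sections both also overlapped with pelvis. Markers of other cell types moved in different directions. The 5 red blood cell markers, all called lower and none at 0, summed to 8905 and 9055 CPM in normal and 765 and 1618 CPM in ischemic sections. The 5 endothelial markers, of which 3 were called higher and Kdr lower, summed to 250 and 321 against 390 and 434 CPM. The 4 collecting duct markers summed to 538 and 788 against 507 and 676 CPM, with Hsd11b2 called lower (-1.10) and Aqp2, Aqp3 and Fxyd4 not called. The 4 neutrophil markers, all called higher and none at 0, summed to 1.08 and 1.63 CPM in normal against 174 and 174 CPM in ischemic sections. The 5 macrophage and monocyte markers summed to 131 and 204 against 194 and 191 CPM, with Cd68 called higher (2.25) and C1qa (-0.41) and C1qb (-0.45) called lower. The 4 injury markers, all called higher, rose with Slc2a1, and the part of any of these cells in its rise was not tested.

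**Figure D4:**
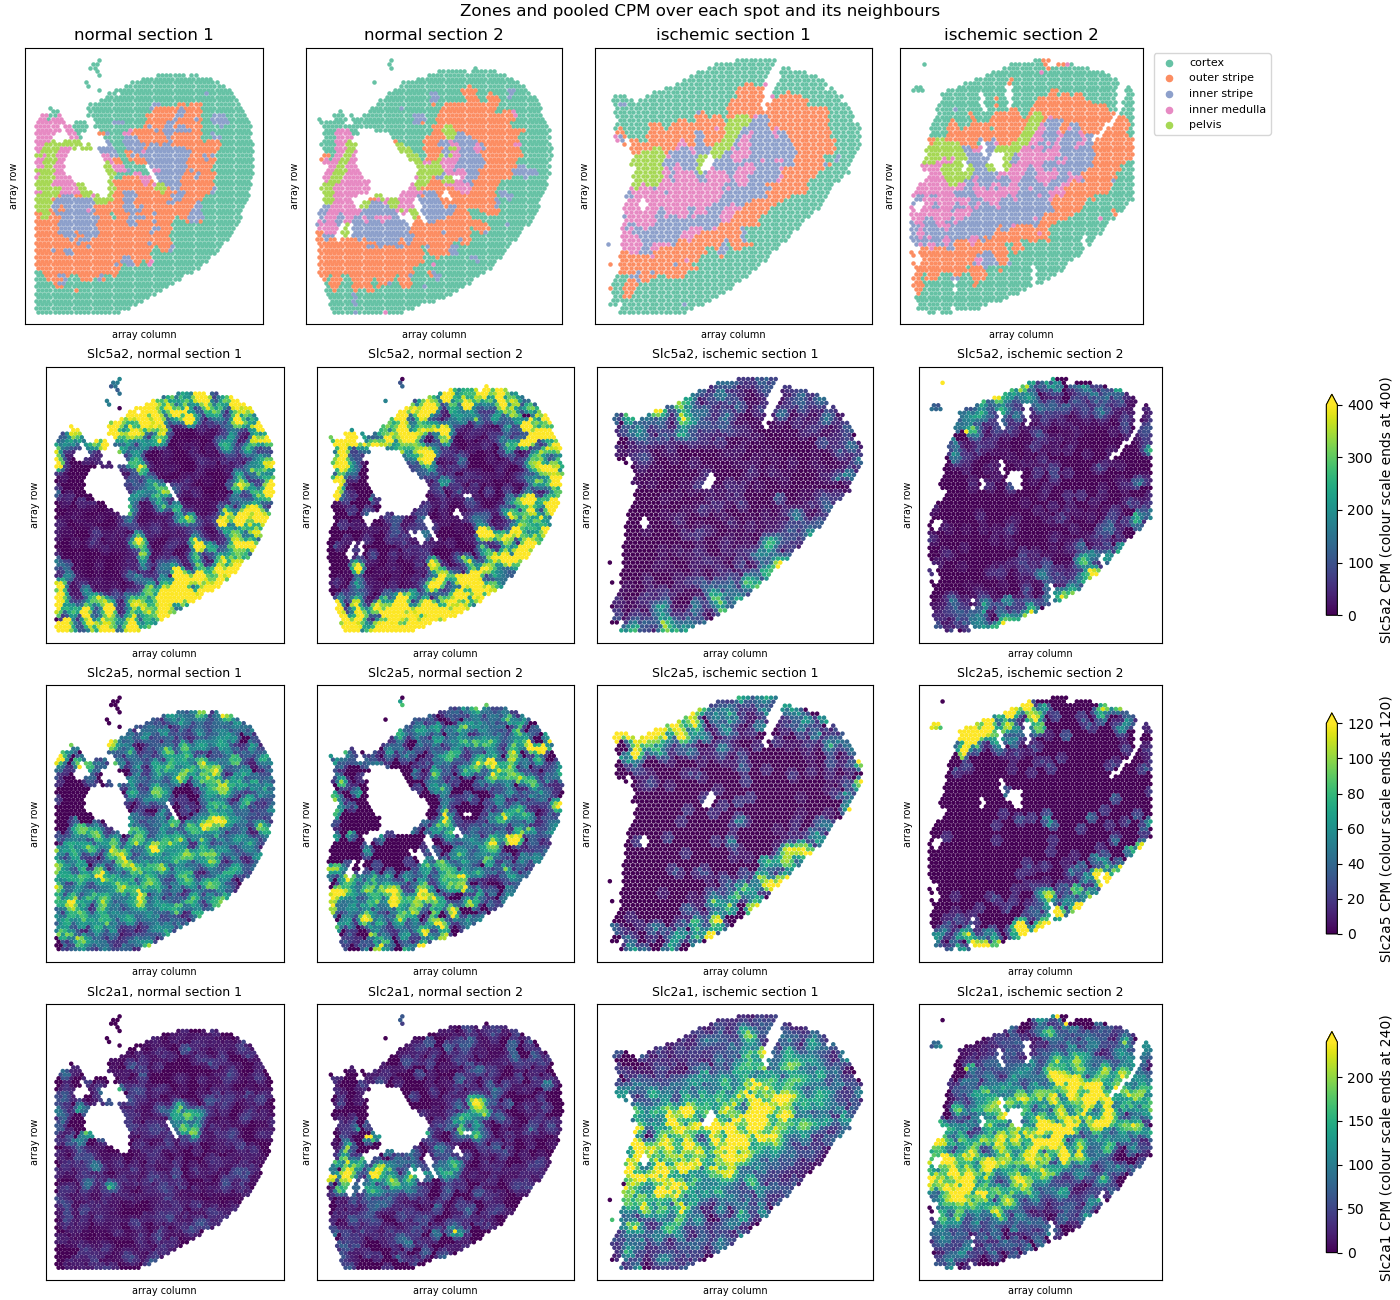
Maps of the 4 sections (columns, in array coordinates) with spots coloured by zone (top row) and by CPM of Slc5a2, Slc2a5 and Slc2a1 pooled over each spot and its neighbours (colour scales end at 400, 120 and 240 CPM). Slc5a2 marks the cortex of the normal sections and is weak in the ischemic ones, Slc2a5 covers cortex and outer stripe in the normal sections and keeps patches at the cortical rim in the ischemic ones, and Slc2a1 fills the ischemic medulla.

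Called members per zone numbered 4 in cortex, where 50.1% of the genes tested were called, 4 in outer stripe (67.3%), 4 in inner stripe (41.5%), 4 in inner medulla (28.4%) and 3 in pelvis (25.3%). These backgrounds are high, so a call by itself sets no member apart, and the sizes and directions carry the description.

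Ischemic tissue was uneven, and the transporters varied with the local level of Havcr1, the injury molecule KIM-1 of the proximal tubule. In ischemic cortex the spots of each section were split into 4 bins of equal size by Havcr1. Havcr1 stood at 619 and 505 CPM in the lowest bin and at 2033 and 2128 CPM in the highest. Its whole-section log2 fold change was 9.64 (SE 0.28), and the lowest bin was not free of it. Slc5a2 stood at 146 and 163 CPM in the bin with the least Havcr1 and at 49.4 and 50.0 CPM in the bin with the most. Slc2a2 went from 169 and 212 to 84.5 and 85.9 CPM across the same bins, and Slc2a5 from 72.7 and 96.2 to 19.2 and 14.9 CPM. Slc2a1 ran the other way, from 44.1 and 33.8 to 65.0 and 62.6 CPM, and Slc5a1 stood at 21.2 and 20.8 CPM in the lowest and 24.8 and 29.4 CPM in the highest bin. Lrp2 did not show that order, with 238 and 244 CPM in the lowest and 236 and 240 CPM in the highest bin. Even in the bin with the least Havcr1, Slc5a2 lay below the 309.5 and 356 CPM of normal cortex, while Slc2a2 and Slc2a5 lay above their normal cortical levels. In ischemic outer stripe, where Havcr1 ran from 1387 and 1299 to 3018 and 3293 CPM, Slc5a2 was 18.0 and 18.8 CPM in the lowest and 17.2 and 17.5 CPM in the highest bin, with 35.1 CPM in bin 2 of section 1. Slc2a2 there stood at 18.0 and 23.5 CPM in the lowest and 23.4 and 26.3 CPM in the highest bin, and Lrp2 at 70.3 and 58.6 against 128 and 154 CPM. Median UMIs per spot rose with Havcr1 in cortex, from 10604 and 7015 to 13840 and 11933, and the bins carry no test. Position was not held fixed in these bins, and its part was not tested. In normal cortex, from bin 1 to bin 5 of the order towards outer stripe, Slc5a2 went from 411 and 423 to 263 and 306 CPM. Slc2a2 went from 116 and 127 to 84.5 and 79.7 CPM there, and Slc2a5 from 37.4 and 41.5 to 38.0 and 40.6 CPM.

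**Figure D5:**
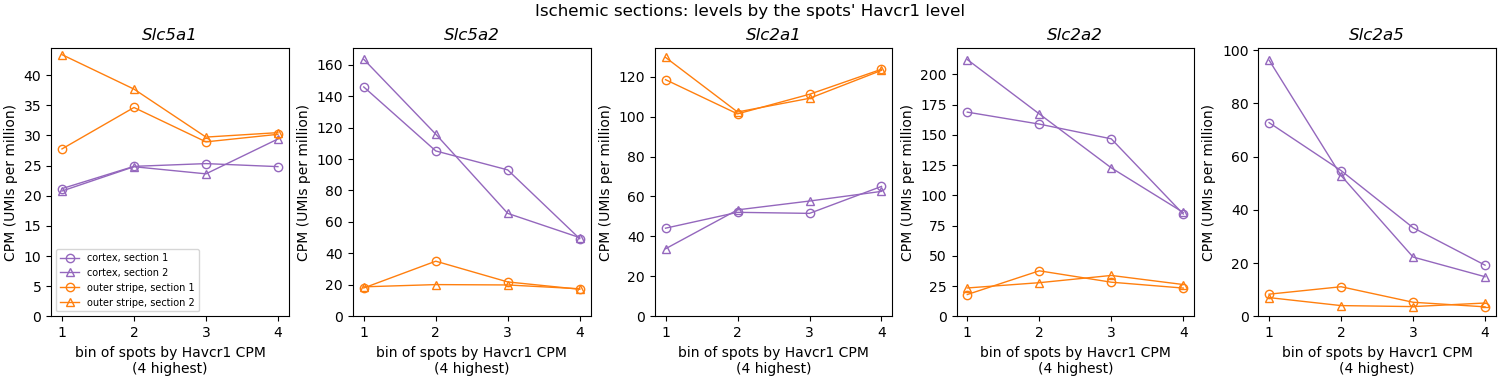
CPM (y axis, linear, from 0) of each glucose transporter in the ischemic sections by bin of spots ordered by Havcr1 (x axis, bin 4 the highest), for cortex (purple) and outer stripe (orange), with 1 line per section. In cortex Slc5a2 falls from 146 and 163 to 49.4 and 50.0 CPM, and Slc2a1 goes from 44.1 and 33.8 to 65.0 and 62.6 CPM.

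A fit across zones with the section as a block asked how the difference between zones changed. In normal sections 4 of the 5 members differed between outer stripe and cortex, where 22.9% of genes did: Slc5a1 (log2 1.07) and Slc2a5 (0.76) were higher in outer stripe, Slc5a2 (-2.38) and Slc2a2 (-2.31) were lower, and Slc2a1 was not called (0.31, edgeR adjusted p 0.0771). The Slc2a5 call was lost with DESeq2 (0.74, DESeq2 adjusted p 0.0682). In ischemic sections all 5 were called, where 36.9% of genes were: Slc5a1 0.36, Slc2a1 1.07, Slc5a2 -2.22, Slc2a2 -2.38 and Slc2a5 -2.93. The Slc5a1 call was lost with DESeq2 (0.40) and without either ischemic section (0.43 and 0.30). The change of the zone difference with ischemia was called for 3 members, against 21.9% of genes. It was -3.69 for Slc2a5 (SE 0.28, edgeR adjusted p 5.61e-08), 0.77 for Slc2a1 (SE 0.16, edgeR adjusted p 0.00154) and -0.71 for Slc5a1 (SE 0.17, edgeR adjusted p 0.00545). The steep cortex-to-outer-stripe drop of Slc5a2 (change 0.16, 95% interval -0.20 to 0.53) and of Slc2a2 (-0.07, 95% interval -0.35 to 0.21) was not called as changed. The Slc2a1 change did not pass without ischemic section 1 (0.79, edgeR adjusted p 0.0835) or 2 (0.76, edgeR adjusted p 0.087), and that of Slc5a1 did not pass without ischemic section 1 (-0.65, edgeR adjusted p 0.112).

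Inner medulla was set against cortex in the same fit. In normal sections 4 members were called, against 40% of genes: Slc2a1 (0.79) was higher in inner medulla and Slc5a2 (-1.94), Slc2a2 (-2.57) and Slc2a5 (-0.90) were lower. The Slc2a5 value was -1.37 without normal section 1 and -0.50, not called, without normal section 2, and without TMM it was -0.52, not called. The Slc2a1 value without normal section 2 was 0.65, not called (edgeR adjusted p 0.0558). In ischemic sections the same 4 were called, against 48.2% of genes, with Slc2a1 at 1.47, Slc5a2 at -3.12, Slc2a2 at -4.91 and Slc2a5 at -4.14. The difference changed for these 4, against 14.4% of genes, by -3.24 for Slc2a5, -2.35 for Slc2a2, -1.19 for Slc5a2 and 0.68 for Slc2a1. The normal side of each comparison includes the spots with cortex and fat markers. The Slc5a2 change was -0.89, not called, without ischemic section 2, and that of Slc2a1 was not called without normal section 1 (0.57), ischemic section 1 (0.71) or 2 (0.66) or with zones from single spots (0.22).

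Related genes were read in the whole-section fit by lists chosen with earlier results of these data known. Over all 15305 genes tested, 60.6% were called, 4737 higher and 4542 lower, and the counts of each list are read against that share. Of 15 other carriers of the same families, 12 were tested, 2 were called higher and 6 lower, near the 60.6% of all genes, with a median log2 fold change of -0.56 against 0.04 over all genes. Slc2a4, the insulin-responsive carrier GLUT4, went from 16.1 and 19.2 to 4.38 and 4.82 CPM (-2.21, SE 0.12). Mean Slc2a4 was lower in the ischemic sections in all 5 zones. It went from 17.6 to 5.78 CPM in cortex, 12.2 to 3.23 in outer stripe and 33.5 to 6.41 in inner stripe. In inner medulla it went from 27.6 to 3.09 CPM and in pelvis from 19.8 to 1.59 CPM. The 3 fat markers, Adipoq, Plin1 and Cidec, were all called lower and none was at 0. They summed to 36.6 and 17.9 CPM in normal against 3.86 and 3.51 CPM in ischemic sections, and their part in the Slc2a4 value was not tested. Slc5a11, an inositol carrier, fell from 18.8 and 17.3 to 5.51 and 5.12 CPM (-2.05, SE 0.15). Slc5a9, a mannose and fructose carrier, fell by 1.73 on the log2 scale (SE 0.16) and Slc2a12 by 1.54 (SE 0.20). The carriers that rose were Slc5a3, the osmotically regulated inositol carrier, from 44.9 and 69.2 to 158 and 164 CPM (1.25, SE 0.13), and Slc2a10, at 0.494 to 2.06 CPM. Slc5a10 was not called in whole sections (-0.04, SE 0.16), at 140 and 121 against 156 and 154 CPM, but by zone it was called higher in cortex (1.22) and lower in outer stripe (-1.03), inner stripe (-2.29) and inner medulla (-1.84).

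Among 11 partners and regulators, 10 were tested, 1 was called higher and 6 lower, against the same 60.6%, with a median of -0.43. Pdzk1, a brush border scaffold, fell by 2.16 on the log2 scale (SE 0.17), and Pdzk1ip1 (MAP17), the accessory subunit that SGLT2 needs for transport, went from 1408 and 1584 to 919 and 831 CPM (-1.05, SE 0.16). Hnf4a, a factor that drives proximal tubule genes, fell as well (-1.09, SE 0.12). Hif1a, the hypoxia-inducible factor subunit, went from 32.1 and 38.8 to 97.2 and 107 CPM (1.26, SE 0.10), while Txnip, which sends GLUT1 to the cell interior, was not called (0.04, SE 0.14).

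Of 8 genes of glucose and fructose synthesis and use in the proximal tubule, 7 were called lower and none higher, against 60.6% of all genes called in either direction, with a median of -1.37. G6pc, the last enzyme of glucose release, went from 51.0 and 64.0 to 11.8 and 11.1 CPM (-2.60, SE 0.10), Fbp1 fell by 2.49 (SE 0.14) and Khk, the fructose kinase that acts on what GLUT5 brings in, went from 597 and 511 to 142 and 131 CPM (-2.31, SE 0.18). Ppargc1a, a coactivator of mitochondrial and gluconeogenic genes, fell by 1.38 (SE 0.11). Tkfc, which acts at a later step of fructose breakdown than Khk, was not called in whole sections (0.13, SE 0.14). By zone Tkfc was called higher in cortex (0.97) and lower in outer stripe (-0.76), inner stripe (-1.75) and inner medulla (-1.32). Of 12 glycolysis genes, 6 were called higher and none lower, fewer than the 60.6% of all genes, with a median of 0.45. By zone 1 glycolysis gene was called lower in each of cortex (Pgk1, -0.31), outer stripe (Ldha, -0.48) and inner medulla (Pfkfb3, -1.90). Slc16a1, a lactate carrier, went from 7.84 and 10.2 to 25.3 and 25.7 CPM (1.24, SE 0.10) and Eno1 from 214 and 235 to 515 and 461 CPM (0.85, SE 0.14). Hk2 (2.96) and Slc16a3 (2.48) had larger folds on low levels, at most 3.12 CPM in any section, and Ldha (-0.30) and Gapdh (-0.01) were not called.

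The genes with the most similar pattern over the 20 sums of 4 sections and 5 zones were found by Pearson correlation of log2(CPM + 1) among 13928 genes outside the zone marker lists. These sums share sections, depth and the ischemic contrast, so the correlations are descriptive. For Slc5a2 they were Gatm, Igfbp4, Spp2, Prodh and Cela1 (r 0.97 to 0.98), and for Slc2a2 they were Cpn1, Acnat2, Dab2, Slc13a1 and Folh1 (r 0.97 to 0.98). For Slc2a5 they were Ech1, Dao, Ddc, Sdhaf1 and Khk (r 0.96 to 0.97), and for Slc2a1 Fstl3, Cd24a, Col15a1, Ankrd1 and Myef2 (r 0.97 to 0.98). Slc5a1 had the least close matches, with P2rx5, Pelo, Glo1, Nol7 and Slc25a17 at r from 0.79 to 0.86. No member was among the 5 closest genes of another. Among the members the correlations ran from -0.89 between Slc2a1 and Slc2a5 to 0.77 between Slc5a2 and Slc2a5.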

How the data were processed

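The authors cut 10 µm Visium sections, counted UMIs with Space Ranger 1.3.0 on mm10 (the version from the file headers, the build from the submitters' processing notes) and deposited these counts unnormalized, by gene and by spot under tissue. Spot positions were deposited too, and spot images were not used here. Depth is given with the results. Samples were grouped by their titles. The members, gene lists and named-gene rule (the 5 members, up to 4 called genes of each list by absolute fold plus genes named by role, and the 5 closest patterns) were chosen with earlier results of these data known. Zone scores were the mean log CPM of marker genes over a spot and its up to 6 neighbours, standardised within a section. Pelvis needed at least 10 pelvis counts and a place in the top 5%. Counts were summed per section or zone and tested with edgeR 4.0.16 in R 4.3.3 (quasi-likelihood test after TMM and filterByExpr, p adjusted by Benjamini-Hochberg over all genes tested, threshold 0.05), which was checked on simulated data. Between-zone contrasts used 1 fit with the section as a block. Alternatives were DESeq2 1.42.0, no TMM, no filter, spots with at least 500 UMIs, each section left out, a replicate block and 3 other zone settings. Reads of overlapping or antisense genes and of near-identical copies cannot be told apart in deposited counts. A gene of the lists is not reported here. RefSeq promoters of GRCm38.p6 and GENCODE coordinates were matched by symbol and identifier.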

Additional observations from a re-analysis of the deposited data

Results flagged for a closer look

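The difference between zones changed with ischemia for some transporters, by the interaction term of edgeR's quasi-likelihood fit. Between outer stripe and cortex the log2 change was -3.69 for Slc2a5, 0.77 for Slc2a1 and -0.71 for Slc5a1. Between inner medulla and cortex it was -3.24 for Slc2a5, -2.35 for Slc2a2, -1.19 for Slc5a2 and 0.68 for Slc2a1. With 2 sections a group, no group was large enough to look for single outlying sections.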

How the results depend on the processing

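Of 673 alternative values for the members, 617 kept their direction and side of the threshold, 28 fell short of it, 13 newly passed and 15 turned sign, none of the latter called in the values reported. Without TMM the whole-section changes of Slc5a1 (0.52) and Slc2a2 (0.33) passed, and those of Slc2a5 in cortex (0.066), Slc5a1 in outer stripe (0.30) and inner stripe (0.10), the outer stripe to cortex change of Slc2a2 (0.12) and inner medulla against cortex for Slc5a1 in ischemic sections (0.067) turned sign. The change of Slc2a2 was also 0.052 with no filter, 0.24 with zones from single spots and 0.0012 without boundary spots. With zones from single spots, inner medulla against cortex for Slc5a1 was 0.046 in normal sections and its change -0.17. With no filter Slc5a1 passed in whole sections (0.26), and with the replicate block too (0.24, edgeR adjusted p 0.0367). Sections of the same number are not known to belong together (correlation of their deviations 0.16), and the block changed no other member's call. Leaving out 1 section gave 0.081 to 0.38 for Slc5a1 and -0.066 to 0.16 for Slc2a2 in whole sections. It turned the sign of Slc2a5 in cortex (-0.33 to 0.023), Slc5a1 in outer stripe (-0.15 to 0.039), the outer stripe to cortex change of Slc2a2 (-0.11 to 0.065) and the inner medulla to cortex change of Slc5a1 (-0.17 to 0.34). The cause was not tested.

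Called genes in inner medulla numbered 3244, and 2099 with DESeq2 or 4933 with zones from single spots. In pelvis they numbered 2674, and 1455 with DESeq2. Leaving out 1 section, which assumes that a lone section varies like the others, gave 2218 to 7465 calls in inner stripe (5114 with all), 1928 to 4221 in inner medulla and 1413 to 2884 in pelvis. For outer stripe against cortex it gave 2121 to 3529 in normal sections (3201), 1645 to 6825 in ischemic sections (5151) and 766 to 3875 for the change (3057). For inner medulla against cortex it gave 3688 to 7513 in ischemic sections (6732) and 638 to 2525 for the change (2011). Without TMM the share of calls that were higher went from 51.5% to 67.9% in cortex, 51.0% to 69.8% in outer stripe, 44.5% to 62.3% in inner stripe, 39.6% to 50.1% in inner medulla, 54.6% to 32.2% for outer stripe against cortex in normal sections, 37.3% to 61.6% for its change, and 48.8% to 78.1% and 45.7% to 73.4% for inner medulla against cortex in normal and ischemic sections. Depth limits Slc2a5 most in the inner stripe, inner medulla and pelvis of the ischemic sections, which held 2 to 17 UMIs.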
